A study of Mus musculus with 4 samples.

Results

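The glomerular basement membrane is represented here by 10 genes chosen by name: the collagen IV genes Col4a1, Col4a2, Col4a3, Col4a4 and Col4a5, the laminin genes Lamb2 and Lama5, the agrin gene Agrn, and the integrin genes Itga3 and Itgb1. They are 10 of the 21887 protein-coding genes of the table used, and all 10 were found in it. The zinc-finger protein WT1 regulates transcription in podocytes and nephron progenitors, and its occupancy was mapped by chromatin immunoprecipitation and sequencing (ChIP-seq) in kidneys dissected from mouse embryos at E18.5, shortly before birth. All animals were wild type on a mixed background, C57Bl6 crossed with B6DBA/F1. There were 2 samples with the C-19 antibody against WT1, replicates 1 and 2, and 2 with IgG as the negative control, which were not analysed here. Every peak of each WT1 list, and every region of the deposited table of regions found in both lists, was taken if its midpoint lay in a member gene or within 50 kb of it. Whole kidneys were used, so WT1 bound in a few cells and weaker binding in many cells cannot be told apart.

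The glomerular basement membrane is the sheet of extracellular matrix between podocytes and endothelial cells in the filter of the kidney. Its collagen IV network is first built from the chains of Col4a1 and Col4a2, and in the mature glomerulus from those of Col4a3, Col4a4 and Col4a5, which podocytes make. Lama5 and Lamb2 encode chains of its main laminin, Agrn encodes its heparan sulfate proteoglycan agrin, and the products of Itga3 and Itgb1 pair into the integrin through which podocytes hold on to that laminin. Col4a1 and Col4a2, and likewise Col4a3 and Col4a4, lie head to head and are transcribed away from each other.

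The sequences below show which bases of the listed promoters lay under WT1 peaks, each as 300 bases from RefSeq (GRCm38.p6, the assembly behind mm10), 250 before and 50 from the listed start on, read 5′ to 3′ along the gene. In the integrin genes Itgb1 (chr8:128685404-128685703, plus strand) and Itga3 (chr11:95076665-95076964, minus strand) capitals mark bases under a peak of both replicates. In Lamb2 (chr9:108479612-108479911, plus strand) and at the second listed start of Agrn (chr4:156186210-156186509, minus strand) they mark a peak of replicate 2 alone, and in Col4a5 (chrX:141475169-141475468, plus strand) a peak of replicate 1 alone. The peaks of Itgb1, Itga3 and Agrn cover the start itself, and those of Lamb2 and Col4a5 end upstream of it. The Col4a2 promoter (chr8:11312555-11312854, plus strand) carried no peak. It is shown because its capitals mark the 78 bases that also belong to the promoter of Col4a1 on the other strand.
Itgb1: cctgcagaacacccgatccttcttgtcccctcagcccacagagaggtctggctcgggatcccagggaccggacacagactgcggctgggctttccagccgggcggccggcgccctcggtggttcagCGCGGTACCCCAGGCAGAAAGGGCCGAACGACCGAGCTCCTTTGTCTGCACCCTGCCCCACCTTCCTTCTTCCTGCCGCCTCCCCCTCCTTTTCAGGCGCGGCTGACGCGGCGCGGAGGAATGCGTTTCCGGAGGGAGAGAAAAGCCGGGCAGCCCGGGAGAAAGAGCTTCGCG
Itga3: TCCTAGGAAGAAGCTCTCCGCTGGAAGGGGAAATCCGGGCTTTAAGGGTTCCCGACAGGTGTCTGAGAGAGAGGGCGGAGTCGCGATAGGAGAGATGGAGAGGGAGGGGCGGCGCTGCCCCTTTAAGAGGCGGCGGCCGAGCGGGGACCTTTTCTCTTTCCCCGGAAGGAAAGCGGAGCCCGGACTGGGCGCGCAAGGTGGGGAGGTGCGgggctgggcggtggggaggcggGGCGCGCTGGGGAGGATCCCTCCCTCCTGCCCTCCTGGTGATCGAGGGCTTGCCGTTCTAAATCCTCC
Lamb2: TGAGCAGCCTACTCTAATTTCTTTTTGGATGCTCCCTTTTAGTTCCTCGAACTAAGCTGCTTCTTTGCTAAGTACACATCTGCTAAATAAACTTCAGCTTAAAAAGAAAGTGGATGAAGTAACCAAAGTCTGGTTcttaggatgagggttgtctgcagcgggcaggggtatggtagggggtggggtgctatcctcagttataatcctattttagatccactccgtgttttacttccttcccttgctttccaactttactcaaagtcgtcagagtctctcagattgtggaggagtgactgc
Agrn: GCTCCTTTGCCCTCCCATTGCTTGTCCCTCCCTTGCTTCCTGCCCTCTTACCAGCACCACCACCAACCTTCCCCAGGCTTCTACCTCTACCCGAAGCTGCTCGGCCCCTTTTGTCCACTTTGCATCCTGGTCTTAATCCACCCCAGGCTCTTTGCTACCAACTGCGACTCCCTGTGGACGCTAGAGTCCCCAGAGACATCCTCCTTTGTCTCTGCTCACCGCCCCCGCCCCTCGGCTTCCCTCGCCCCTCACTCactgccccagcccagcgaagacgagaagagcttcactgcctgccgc
Col4a5: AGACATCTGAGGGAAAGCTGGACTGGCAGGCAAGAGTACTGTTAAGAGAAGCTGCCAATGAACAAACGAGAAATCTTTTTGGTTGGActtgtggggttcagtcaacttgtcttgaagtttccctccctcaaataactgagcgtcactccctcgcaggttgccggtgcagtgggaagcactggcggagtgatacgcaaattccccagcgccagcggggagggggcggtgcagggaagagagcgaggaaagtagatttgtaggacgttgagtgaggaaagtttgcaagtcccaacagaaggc
Col4a2: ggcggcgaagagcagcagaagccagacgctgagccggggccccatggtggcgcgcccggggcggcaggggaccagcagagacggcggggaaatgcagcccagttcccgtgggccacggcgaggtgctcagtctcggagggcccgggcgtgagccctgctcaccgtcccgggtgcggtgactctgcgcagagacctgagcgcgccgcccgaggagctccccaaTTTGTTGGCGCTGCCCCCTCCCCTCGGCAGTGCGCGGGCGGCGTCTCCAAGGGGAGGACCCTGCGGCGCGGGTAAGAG
In Itgb1, 174 of the 300 bases were under both replicates, and in Itga3 278. The lower-case stretch of 22 bases in Itga3 is the gap between 2 neighbouring peaks of replicate 1, which replicate 2 covered with 1 peak.

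All 10 genes had at least 1 region found in both replicates, and 5 had a reproducible one: Col4a1, Col4a2, Lama5, Itga3 and Itgb1. A region counts as reproducible at an irreproducible discovery rate (IDR, the authors' error rate for regions found in both lists) of 0.05 or lower. The reproducible regions lay at the start of Itgb1 and Itga3, just upstream of Itga3 and Lama5, in the first part of Col4a2, and near the far end of Col4a1. Col4a3, Col4a4, Col4a5, Lamb2 and Agrn had none. At Col4a4, Col4a5 and Lamb2 a weaker region of both replicates lay within 0.5 kb of the listed start, and Col4a3 has no listed start. Of all protein-coding genes with a listed start, 8.1% had a region of any IDR within 0.5 kb of it. In the gene or within 50 kb, 26.1% of all protein-coding genes had a reproducible region and 57.0% a region of any IDR. The median length was 82.0 kb for the members and 17.2 kb for all genes, and longer genes have larger windows. No test of the difference was made.

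**Figure D1:**
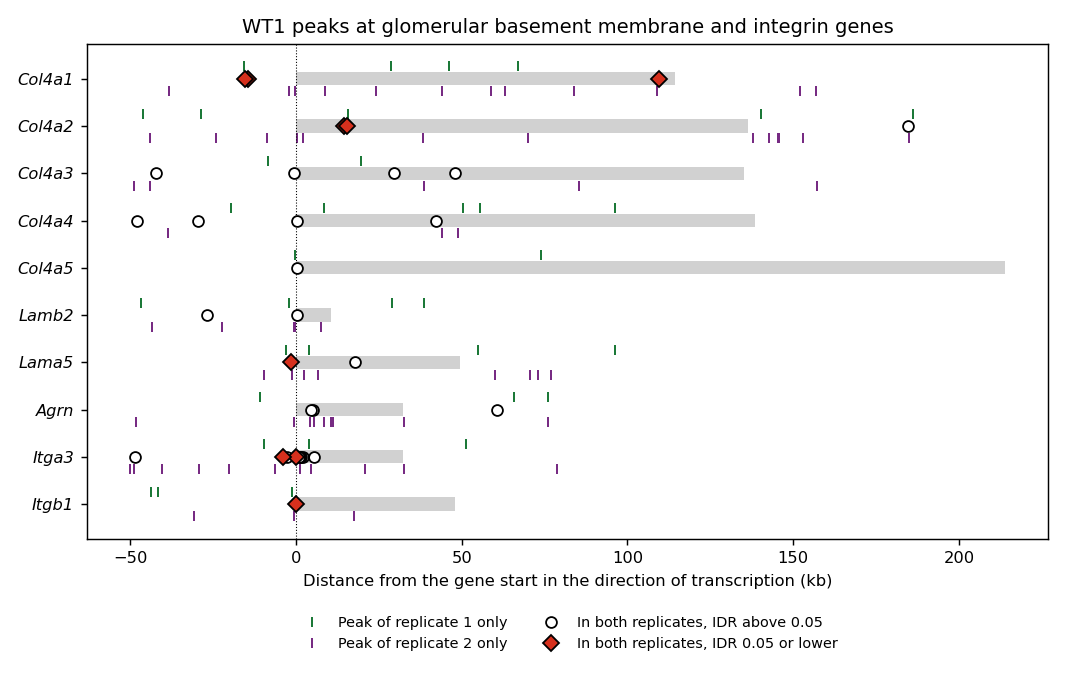
Position of every WT1 peak and overlap region at the 10 genes, in kb from the gene start (for Col4a3, which has no listed start, from its end facing Col4a4). Grey bars are genes, red diamonds reproducible regions, open circles other regions of both replicates, and ticks above and below each gene peaks of replicate 1 only and replicate 2 only; the red diamonds fall at 5 genes.

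Counted once each, the windows held 26 overlap regions, of which 7 were reproducible, 26 regions being 15.2 per Mb of sequence searched (exact Poisson 95% interval 9.93 to 22.3) against 8.18 per Mb in the windows of all protein-coding genes. The interval for the 26 regions lies above the level of all genes. Without Itga3, which held 9 of them, the most of any member, there were 17 regions or 10.8 per Mb (6.27 to 17.2). That interval includes the level of all genes. Reproducible regions came to 4.09 per Mb (1.64 to 8.43) in the members and 2.20 in all genes, and the interval again includes the level of all genes. These intervals cover counting error only, and regions of 1 gene are not independent of each other. Of the overlap regions of the members 7 of 26 were reproducible, beside 25.6% of all 17234 regions of the table. The other 19 had IDR values from 0.162 to 0.555, so no region of these genes lay close above the threshold.

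Col4a1 and Col4a2 encode the chains of the collagen IV network found in basement membranes throughout the body. Their annotated genes overlap by 85 bp and their listed starts are 21 bp apart. No peak of either replicate touched the listed promoter of Col4a1 or the Col4a2 promoter printed above. The closest was a peak of replicate 2 alone (chr8:11313101-11313284, significance value 0.00623), 387 bp downstream of the Col4a2 start and 366 bp upstream of that of Col4a1. The significance value is the authors' own value for a peak, read as a p-value or q-value.

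The sites found in both replicates lay farther away, and 2 of them are shared by the pair. The first, chr8:11327159-11327705, had an IDR of 0.000114. It lay inside Col4a2, 14.6 kb downstream of its start, and 14.6 kb upstream of the start of Col4a1. Replicate 1 placed 2 peaks there with significance values of 4.42e-06 and 1.32e-06, and replicate 2 placed 1 with 1.97e-22. The second, chr8:11328040-11328390, followed 334 bp further on with an IDR of 0.0029 and values of 1.22e-05 in replicate 1 and 6.37e-10 in replicate 2. Both lay within 10 kb of the non-coding gene Gm46030 as well. The peaks alone do not assign them to Col4a1 or to Col4a2.

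Col4a1 had the lowest IDR of the 10 genes at a further site, which was not in the window of Col4a2. This region, chr8:11203211-11203462, lay inside Col4a1, 109 kb downstream of its start and 4.91 kb from its far end, and within 10 kb of the non-coding gene Gm15418. Its IDR was 9.12e-06, with significance values of 3.28e-18 in replicate 1 and 2.02e-25 in replicate 2, the smallest of either list at any member. An IDR as low or lower was found for 5.29% of all protein-coding genes in windows of the same kind. Beyond Col4a2, 48.1 kb from its far end and 0.082 kb from Naxd, replicate 2 had a value of 3.89e-06 and replicate 1 of 0.0182 (IDR 0.393).

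Col4a3 and Col4a4 encode chains of the mature glomerular network, and the genes overlap by 114 bp. Their windows held the same 4 overlap regions, and 0 of these were reproducible. One lay near the facing ends of the genes (chr1:82586319-82586533), 423 bp downstream of the listed start of Col4a4 and 0.495 kb outside Col4a3, with an IDR of 0.188. Its significance values were 0.0118 in replicate 1 and 0.00043 in replicate 2. The others lay 29.6 and 48.0 kb inside Col4a3 (IDR 0.167 and 0.349) and 42.2 kb inside Col4a4 (IDR 0.532). The region at an IDR of 0.167, the lowest of the pair, had larger values, 0.0314 in replicate 1 and 0.0271 in replicate 2. Col4a4 also held a peak of replicate 1 alone with a value of 0.000547, 55.6 kb downstream of its start. No peak of this pair in either list had a value below 0.00043, whereas at the reproducible sites of Col4a1 and Col4a2 the values lay between 2.02e-25 and 1.22e-05.

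Col4a5 encodes the third chain of the mature network, and faces Col4a6 across a gap of 1274 bp on the X chromosome. It had the fewest peaks of all members for the longest gene, 3 in replicate 1 and 1 in replicate 2 over 214 kb of gene and 50 kb to each side. The single overlap region (chrX:141475564-141475751) lay 238 bp downstream of the start, with values of 0.0314 in replicate 1 and 0.00681 in replicate 2 and an IDR of 0.162. Replicate 1 had a further peak on the other side of the start, at chrX:141475082-141475255 with a value of 0.00261, which covers the capitals printed above. Both peaks were within the window of Col4a6 too.

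Lamb2 encodes the laminin beta chain of the mature glomerular basement membrane. At 10.7 kb it is the shortest member, and it had weak peaks on both sides of its start. The overlap region (chr9:108480204-108480374) lay 427 bp downstream, with values of 0.0314 in replicate 1 and 0.0112 in replicate 2 and an IDR of 0.403. Upstream, replicate 2 alone had a peak at 552 bp (value 0.00127) and another at 222 bp (value 0.00772), and this one covers the capitals of the printed promoter. Its second overlap region, 26.7 kb upstream, had an IDR of 0.508 and lay within 10 kb of Klhdc8b, Ccdc71 and BC048562.

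Lama5 encodes the laminin alpha chain that partners it. Here both replicates had a strong peak outside the gene, 1.56 kb upstream of the start (chr2:180227152-180227696). Its significance values were 3.19e-06 in replicate 1 and 2.32e-15 in replicate 2, and its IDR was 0.00201. No other protein-coding gene lay within 10 kb of it, and the non-coding gene Gm52542 did. Inside Lama5 the only overlap region, 17.8 kb downstream of the start, had values of 0.0215 and 0.0166 in replicates 1 and 2 (IDR 0.462).

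Agrn encodes agrin, which binds laminin and carries heparan sulfate chains. A site among the strongest of replicate 2 at these genes was weak in replicate 1. At chr4:156192105-156192660, 5.11 kb downstream of the first listed start, replicate 2 had a value of 4.38e-20, and replicate 1 had 0.0401. Its IDR of 0.555 was among the highest of the table (place 17211 of 17234, lowest first). A neighbouring region (chr4:156192741-156192914) had values of 0.0371 in replicate 1 and 0.000232 in replicate 2. Both regions lay within 10 kb of the protein-coding gene Isg15 and the non-coding gene Gm46878. Replicate 2 also had a peak of its own over the second listed start (chr4:156186256-156186581, value 0.00316). The lowest IDR of Agrn, 0.211, belonged to a region 28.4 kb beyond its end, within 10 kb of Rnf223 and 9430015G10Rik.

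Itga3 encodes the alpha subunit of the laminin receptor of podocytes and had the most peaks of the members, 13 in replicate 1 and 20 in replicate 2. It held 9 overlap regions, a number reached by 0.969% of all protein-coding genes, and 8 of them lay in 9.51 kb around its first listed start. Close neighbours, such as chr11:95075499-95075677 and chr11:95075713-95075825, were counted separately, so this is not a count of separate binding sites. Over the start itself (chr11:95076545-95076987) the IDR was 0.0321. Replicate 1 had 2 peaks there with values of 0.0164 and 0.00147, and replicate 2 had 1 with 2.74e-23. The second reproducible region (chr11:95080304-95080653) lay 3.76 kb upstream, with values of 0.000115 in replicate 1 and 1.14e-08 in replicate 2 and an IDR of 0.0116. The 6 other regions of the group had IDR values from 0.223 to 0.554. At one of these, 2.19 kb downstream of the start, the order of the replicates was turned round, with 2.86e-05 in replicate 1 and 0.00617 in replicate 2.

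Itgb1 encodes the beta subunit shared by many integrins. In contrast to Itga3 it had a single overlap region, and this lay on the start (chr8:128685530-128685789), its midpoint 5 bp downstream. The significance values were 3.44e-11 in replicate 1 and 6.22e-25 in replicate 2, and the IDR was 1.13e-05, a level that 5.79% of all protein-coding genes reached. Both replicates began at the same base, which is where the capitals of the printed sequence begin. Each list had 3 other peaks in the window, none found in the other list, with values of 0.00627 to 0.0371 in replicate 1 and 0.0112 to 0.0237 in replicate 2.

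**Figure D2:**
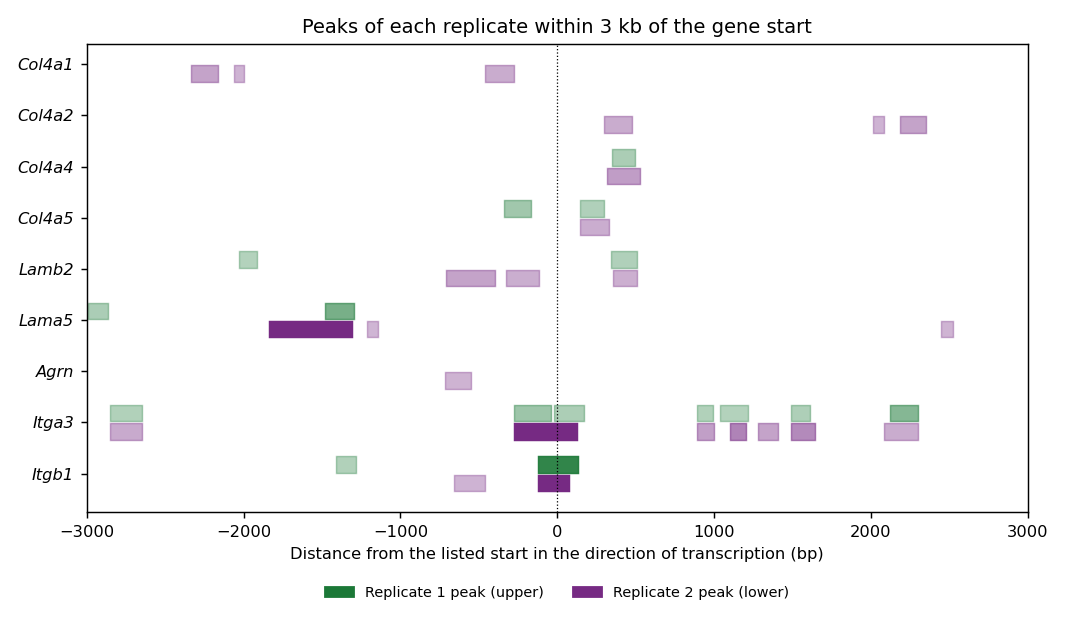
Peaks of replicate 1 (green, upper) and replicate 2 (purple, lower) drawn to scale around the first listed start of the 9 genes that have one, in bp along the direction of transcription; darker bars have smaller significance values. Peaks of both replicates cover the starts of Itga3 and Itgb1, and lie just downstream of those of Col4a4, Col4a5 and Lamb2.

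A listed start was given for 9 members, Col4a3 being the exception. Of these, 5 had an overlap region within 1 kb of a start (Col4a4, Col4a5, Lamb2, Itga3 and Itgb1), against 10.7% of the 17492 protein-coding genes with a listed start. For reproducible regions the count was 2 of 9, Itga3 and Itgb1, against 4.05%. With the peaks of replicate 2 alone it was 8 of 9 against 23.4%, the exception being Lama5, and Col4a1 and Col4a2 were counted through the same peak. With replicate 1 alone it was 5 of 9 against 14.6%. In both lists the members' counts stood above the share of all genes, but this comparison was chosen after the positions had been seen and was not tested. Of all peaks without a partner in the other list, 8.64% in replicate 2 (exact 95% interval 8.37 to 8.92) and 2.37% in replicate 1 (2.21 to 2.54) were within 1 kb of a listed start. These intervals cover counting error only, and each list comes from 1 sample. At the members, 7 of the 61 such peaks of replicate 2 and 1 of the 30 of replicate 1 were within 1 kb of the member's own start. The part of this difference between the lists in the members' counts was not tested.

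The 11 listed promoters of the members had a median GC content of 66.7%, against 52.7% over all 32851 promoters of the table. They ran from 44.0% for Lamb2 to 83.3% for the upstream start of Agrn. The promoters under peaks of both replicates, Itgb1 at 67.3% and Itga3 at 66.7%, lay within the range of the promoters that carried no peak, which were the upstream start of Agrn, Col4a1 (74.0%), Col4a2 (73.7%), Lama5 (72.7%), Col4a4 (63.3%) and the second listed start of Itga3 (52.3%). Motifs of the kind WT1 is known to bind were searched on both strands. GCGTGGGCG was in 0 of the 11 (0.612% of all promoters) and GTGGGAG in 0 (9.73%). The repeat TCCTCCTCC was in 1, the upstream promoter of Agrn (3.03%). These counts describe the 300 bases at each listed start and not the regions farther away.

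Agreement between the replicates was set against the lists as wholes. In the windows of the members, 29 of 59 peaks of replicate 1 (49.2%, exact 95% interval 35.9 to 62.5) overlapped a peak of replicate 2, against 34.1% of all its peaks. Of the peaks of replicate 2, 26 of 87 (29.9%, 20.5 to 40.6) overlapped one of replicate 1, against 30.8% of all its peaks. The interval for replicate 2 includes the level of the list, and that for replicate 1 lies just above it. Itga3 alone gave 10 of the 29 shared peaks of replicate 1, and the intervals cover counting error only. Replicate 2 had 1.47 times as many peaks as replicate 1 at the members and 1.08 times as many over all. The smaller significance value was that of replicate 2 in 23 of the 26 overlap regions, beside 75.4% of all regions.

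**Figure D3:**
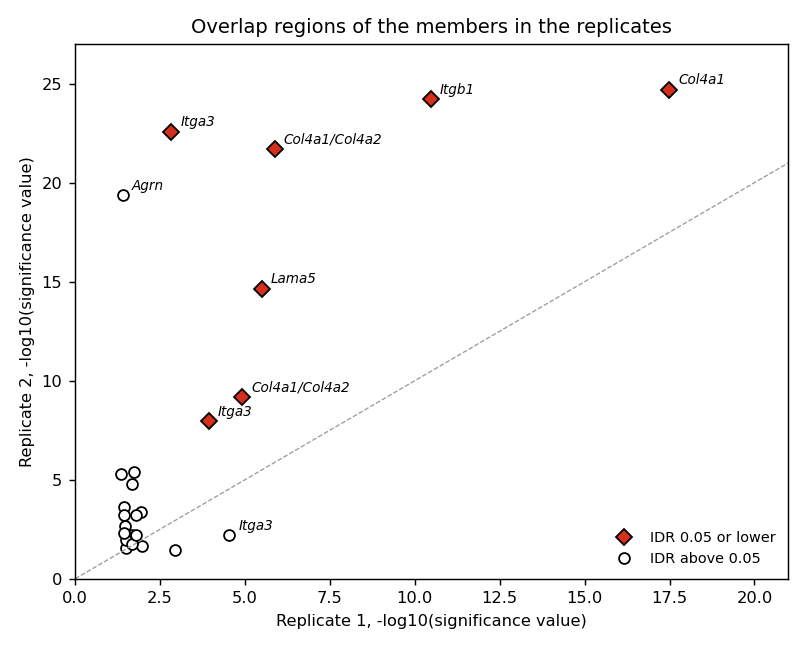
Significance values of the 26 overlap regions on a −log10 scale, replicate 1 on the horizontal and replicate 2 on the vertical axis, with the smallest value where a list has 2 peaks; the dashed line marks equal values. Red diamonds are the 7 reproducible regions, most points lie above the line, and the Agrn region stands high in replicate 2 and near 0.05 in replicate 1.

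The window decides which sites belong to a gene, so sites at its limit are given too. Just inside it, Itga3 had a region 48.5 kb away, within 10 kb of Dlx3, with an IDR of 0.461. Just outside it lay one with a lower IDR, 51.2 kb from Itga3 and inside Ppp1r9b (chr11:94992886-94993682, IDR 3.67e-06), and another at 54.6 kb (IDR 1.40e-07). The region at 54.6 kb was place 16 of the table and lay 1.37 kb from Ppp1r9b. Itgb1 had a reproducible region 76.6 kb away with no nearer protein-coding gene (chr8:128608832-128609320, IDR 0.00375). Those beyond the windows of Lama5 and Lamb2 were nearest to Osbpl2, and to Qrich1 and Wdr6. Inside the gene only, 4 of the 10 members had a reproducible region, with 10 kb around it 5, and with 100 kb 6, against 7.95%, 13.6% and 38.1% of all protein-coding genes.

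Other basement membrane and cell adhesion genes were counted in the same way from a list of 42, all found in the table. Of these, 23 had a reproducible region (54.8%), beside 5 of the 10 members and 26.1% of all protein-coding genes. Their median length was 82.8 kb, against 17.2 kb for all genes, and longer genes have larger windows. The list was chosen with earlier results of these data known, and the difference from all genes was not tested. By role, 10 of 21 matrix genes had a reproducible region (among them Lamb1, Lamc1, Pxdn, Fras1, Col18a1, Lamc3, Frem2, Lama4 and Frem1), and 12 of 20 genes of receptors and adhesion complexes (Bcam, Itga5, Parva, Ilk, Itgb8, Itgb5, Fermt2, Itga6, Itgav, Itga2, Cd151 and Dag1). Lmx1b, a homeobox transcription factor of podocytes, had 2 reproducible regions. Inside the gene only, 16 of the 42 had one, against 7.95% of all protein-coding genes. The region of lowest IDR lay outside the gene for Lamb1, Col18a1, Lamc3, Itga5, Parva, Ilk, Itgb8, Itga6 and Itga2. For Lamc3, Itga5, Ilk, Itga6 and Itga2 it had another protein-coding gene within 10 kb.

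**Figure D4:**
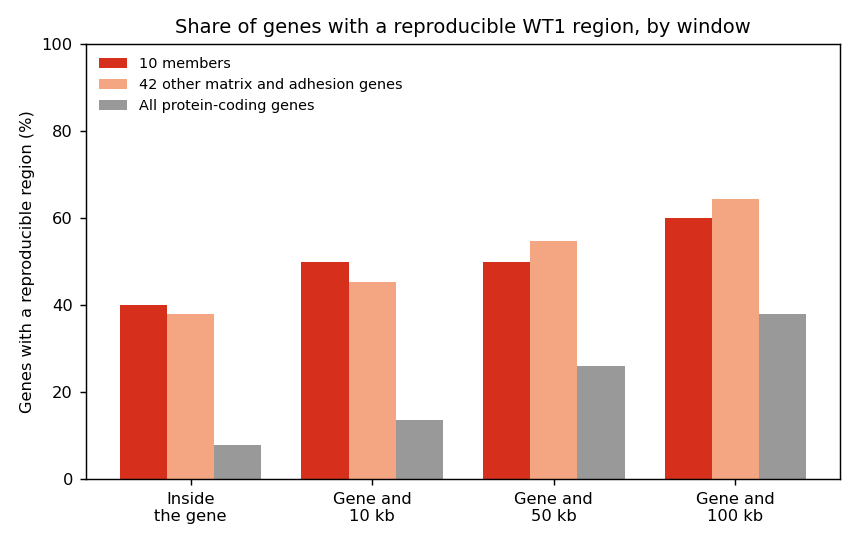
Percentage of genes with a reproducible region for the 10 members (red), 42 other matrix and adhesion genes (orange) and all protein-coding genes (grey), for the gene alone and with 10, 50 or 100 kb added to each side. At 50 kb the shares are 5 of 10, 54.8% and 26.1%. Members and list were chosen with earlier results of these data known, and the differences were not tested.

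The lowest IDR of the list belonged to Bcam, whose product is a receptor for the laminin chain of Lama5. Its region (chr7:19768738-19769518) lay inside the gene, 1.40 kb downstream of the start, at an IDR of 2.87e-07, with values of 3.12e-43 in replicate 1 and 4.12e-81 in replicate 2. Lamc1, which encodes the gamma chain of the same laminin, had a region inside the gene, 48.2 kb from its nearer end, at an IDR of 4.67e-06. Lamb1, the beta chain of the immature membrane, had 4, the first over its start (chr12:31264590-31265552, midpoint 222 bp upstream, IDR 4.07e-06), where Lamb2 had no reproducible one. Itga5, a fibronectin receptor subunit, had its strongest 39.3 kb outside the gene, within 10 kb of Zfp385a, Gpr84 and Copz1 (IDR 1.80e-06). Parva, an adaptor between integrins and actin, had its strongest 23.8 kb outside the gene (IDR 4.23e-06). Lama1, Itgb3, Itgb4 and Itgb6 had 0 overlap regions, and Col4a6 had only the region at the start of Col4a5.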

How the data were processed

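WT1 peaks from 2 ChIP samples of wild-type kidneys were used. The IgG samples have no values here. Per the labels' protocols, libraries were made from DNA digested with MseI together with AluI or HaeIII, and amplified for 18 rounds. The genome build is mm10, per the submitters' processing notes. Not given in the sources used here are the aligner, the peak caller and whether IgG reads were used. The authors' deposited lists (53132 and 57641 peaks) give each peak 1 value of at most 0.0499, read as a p-value or q-value. The deposited table of 17234 regions gives a value of at most 0.555, read as an IDR, which is a q-value-like error rate. The files hold no read counts, so depth is unknown.

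Peaks were placed by their midpoint in 1-based positions, with RefSeq genes and promoters of GRCm38.p6. Peaks of the replicates were shared if they overlapped by at least 1 bp. Of 951 and 1619 peak starts inside listed promoters, 24.5% in replicate 1 and 17.0% in replicate 2 stood at an AluI cut, against 0.526% of all promoter positions. For MseI the shares were 6.20% and 5.62%, against 0.323%, and for HaeIII 0.736% and 0.679%, against 0.611%. None of the 7 edges inside members' promoters stood at an AluI cut. With 1 group of 2 samples, values are descriptions without tests. All members and the listed genes with a reproducible region are named, those among the 6 of lowest IDR with values; the result of 1 listed gene is not reported here. Members and lists were chosen with earlier results of these data known. Functions were tested on simulated data (Python 3.11.15, pandas 2.3.3, SciPy 1.17.1). Alternatives were other IDR thresholds, windows, overlap rules and each replicate alone (its 4411 smallest values); distances to starts and single-gene assignment were added after seeing the data.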

Additional observations from a re-analysis of the deposited data

How the results depend on the processing

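The count of members with a reproducible region, 5 of 10, ran from 4 to 6 over other thresholds, windows and placements and when each region was given to its nearest gene. It was 4 at an IDR of 0.01, against 19.6% of all genes, and 5 at 0.1, against 30.2%. Itga3 was lost at an IDR of 0.01 and Lama5 inside the gene only, and Lamb2 was added with 100 kb. The count became 10 with all overlapped regions, against 57.0% of all genes. With replicate 2 or replicate 1 alone it was 6 and 5, against 26.2% and 24.7% of all genes, the added gene being Agrn from replicate 2. The 7 reproducible regions became 26 with all overlapped regions and 14 with a 100 kb window, and 8 with either replicate alone. The other matrix and adhesion genes, 23 of 42, became 38 with all overlapped regions, and were 21 with replicate 2 alone and 24 with replicate 1 alone, beside the same shares of all genes. Restricted to peaks with a value of 0.01 or lower, 76.9% of the peaks of replicate 1 at the members were shared, against 65.7% of all its peaks under that limit, and 60.0% of those of replicate 2, against 50.7%. The 5 members with an overlap region at a start fell to 2 with reproducible regions only. The lowest IDR moved with the window for Lamb2 (0.00138 at 100 kb), Itga3 (1.40e-07 at 100 kb), Agrn (0.42 at 10 kb) and Col4a4 (0.188 at 10 kb), since other regions then counted. No paired analysis was possible because the IgG samples were not analysed here. Without read counts, weak binding below the authors' threshold cannot be judged.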
